A study of Rattus norvegicus with 42 samples.

Results

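Per1, Per2, Per3, Cry1 and Dbp are 5 genes of the circadian clock, taken by their Ensembl identifiers (ENSRNOG00000007387, ENSRNOG00000020254, ENSRNOG00000018413, ENSRNOG00000006622 and ENSRNOG00000021027) from count tables of 13776 genes. All 5 were present in both tables, 1 for each genotype, and all 5 passed the filter on low counts, which removed 0 genes. The cells were GH4C1, a rat pituitary line that makes growth hormone and prolactin. Wild type cells (WT) carried the label of no treatment, and cells lacking the long noncoding RNA Neat1 (KO, Neat1 -/-) were made with CRISPR-Cas9. Fresh medium was given to synchronize both genotypes, and 3 samples of each genotype were collected at 4 h intervals, the first 10 h (T10) and the last 34 h (T34) after it, which gave 42 libraries in 14 groups. The labels do not say whether the KO cells are 1 clone or several, or whether replicates were separate cultures, so p-values measure only the spread between these samples. The identifiers of Neat1, of other clock genes and of pituitary marker genes were not matched to names here, so the genotype and the cell line were not checked against them. In RNA from whole cultures, fewer cells of a kind and less RNA per cell cannot be told apart.

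In the mammalian clock, the activators CLOCK and BMAL1 bind E-box sequences and switch on the Per and Cry genes, whose protein products later enter the nucleus and repress those activators. Dbp is another E-box target, and its protein, an activator of the PAR bZIP family, binds D-box sequences and so passes the rhythm on to other genes. Because Dbp is driven by the same activators that the PER and CRY proteins repress, its RNA is widely used as a readout of the phase of the loop. Per1 and Per2 also respond to outside signals such as serum and cAMP, through CRE sequences among others, which is one way in which a change of medium can set the clocks of cultured cells.

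The promoter of Per2 is shown because it was the only one of those found that held any of the motifs searched. RefSeq promoter sequences of the rat assembly GRCr8 were found for 4 of the 5 genes (Per1, Per2, Per3 and Dbp), and the 250 bases before the start of the gene were searched on both strands. The capitals mark a D-box, TTATGTAA, from 192 to 185 bases before the start, and an E'-box, CACGTT, from 62 to 57 bases before it. The sequence lies at chr9:99496994-99497243 on the minus strand of GRCr8 and is given 5′ to 3′.
Per2: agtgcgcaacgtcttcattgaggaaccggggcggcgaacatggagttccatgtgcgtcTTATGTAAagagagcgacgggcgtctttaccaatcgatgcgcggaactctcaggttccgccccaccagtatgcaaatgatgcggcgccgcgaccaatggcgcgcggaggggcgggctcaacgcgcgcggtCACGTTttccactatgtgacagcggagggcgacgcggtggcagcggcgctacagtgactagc
Among 33469 rat promoter windows of the same length, 4.07% held CACGTT and 0.828% held TTATGTAA. The E-box CACGTG was in 5.59% of them, the D-box variant TTACGTAA in 0.108% and the CRE TGACGTCA in 1.59%, and none of these 3 was in the windows of the 4 genes. A match describes the letters of the window and not a bound site.

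The libraries held 34.5 M to 68.8 M counts (M for mega) in WT and 45.9 M to 60.5 M in KO, and the 5 genes had between 316 and 4023 counts in each library. Replicates correlated across all genes at r = 0.987 to 0.995 in 40 of 42 pairs, and at 0.919 and 0.935 in the 2 pairs that include WT T34 replicate 1. That library also stood apart for the clock genes. Its level, in counts per M of the library total as scaled by TMM in edgeR (CPM), was 4.11 times the mean of the other T34 replicates for Per1 (33.1 against 8.06), 2.15 times for Per3, 1.72 times for Per2, 1.38 times for Dbp and 1.12 times for Cry1. Results below therefore come from all libraries and, where they differ, also from the 41 others. KO T30 replicate 1 differed from its 2 replicates as well, at 1.51 times their mean for Per1, 1.58 times for Per2 and 1.53 times for Cry1, and at 0.708 times for Per3 and 0.728 times for Dbp.

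Averaged over the 7 times, Per1 was higher in KO by 2.11 ± 0.11 on the log2 scale (SE), Per2 was higher by 0.60 ± 0.06, and in Per3 KO differed from WT by -0.49 ± 0.06. Dbp was higher by 0.14 ± 0.04 (adjusted p = 0.00197) with TMM scaling but lower, at -0.16, when libraries were scaled by their totals. For Cry1 the difference was 0.01 ± 0.03 (adjusted p = 0.782), and -0.29 with library totals, which passed the test as a decrease. Library totals moved the median difference of all genes from -0.01 to -0.31, so each change is relative to that shift. By edgeR's quasi-likelihood test with Benjamini-Hochberg adjustment over all genes at 0.05, 4 of the 5 genes differed between genotypes, 3 higher and 1 lower, where 88.1% of all genes did so (43.4% higher and 44.7% lower). Without WT T34 replicate 1 the same 4 passed, and 90.7% of all genes. The count is therefore near the background, and the size of the change is what set Per1 off: only 362 of 13776 genes (2.63%) had a larger absolute difference.

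**Figure D1:**
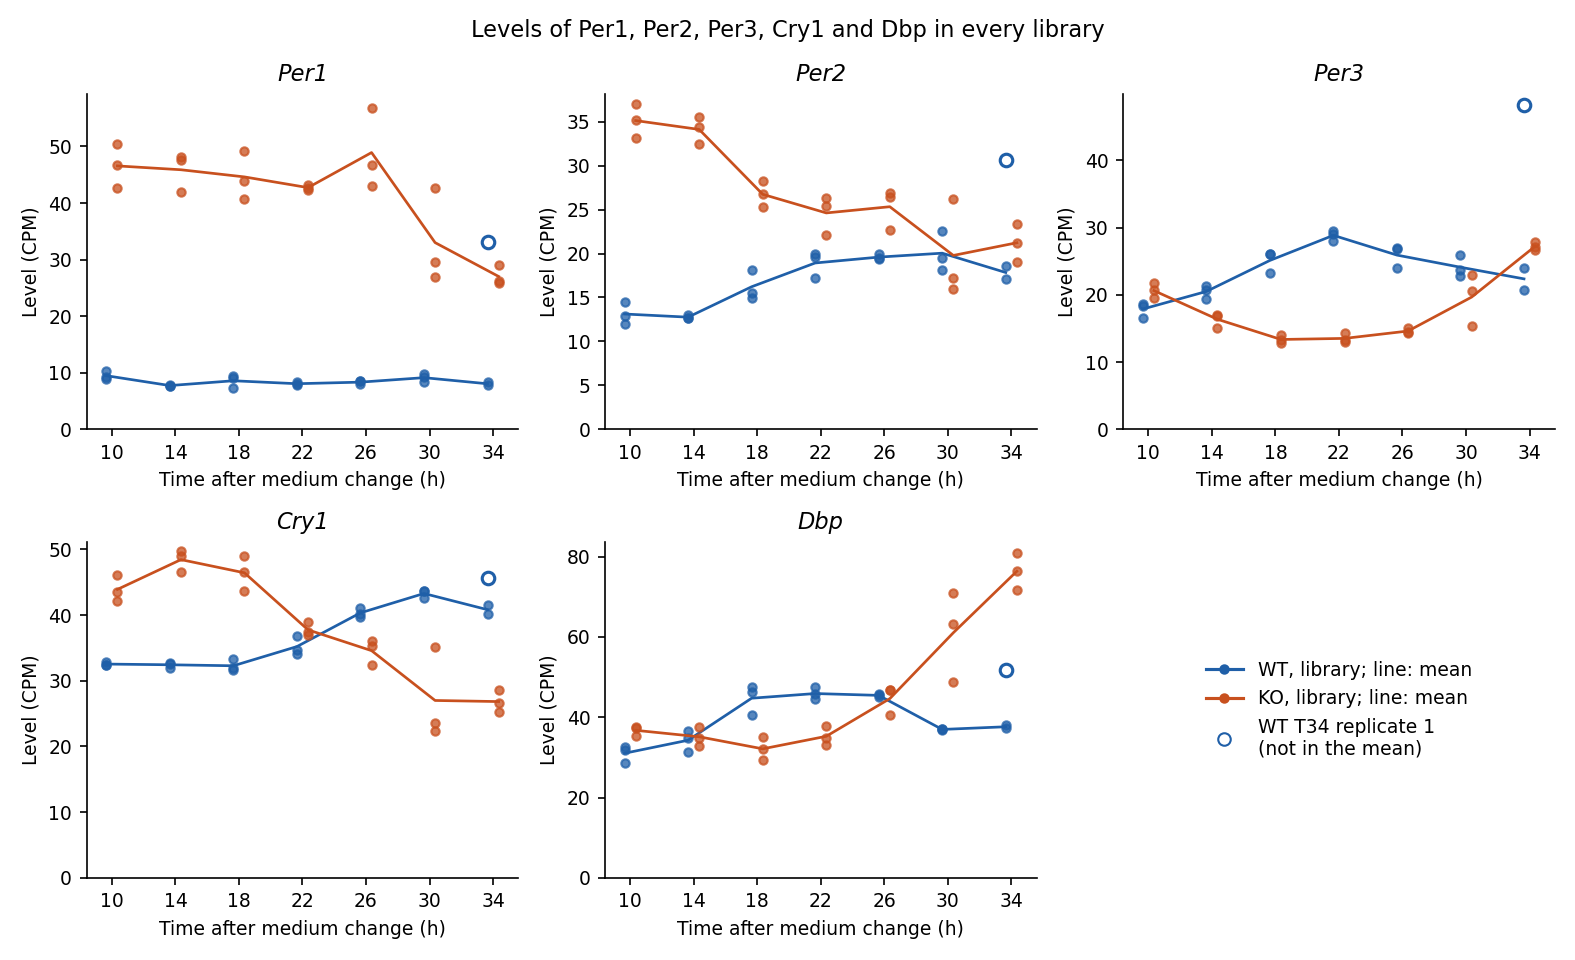
Level of each gene (CPM, linear axis) against hours after medium change, with 1 point per library, WT and KO in separate colours, and lines through the group means, which leave out WT T34 replicate 1 (open circle). The Per1 points of KO lie at 25.9 to 56.9 and those of WT at 7.39 to 10.3 except for 1 library at 33.1. The lines of Per3, Cry1 and Dbp cross. Those of Per2 cross narrowly around T30, where the mean is 19.8 in KO and 20.04 in WT.

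Per1, a PER repressor that is also induced acutely by many signals, was higher in KO at each of the 7 times. In WT its level was 7.39 at the lowest, 8.45 at the median and 33.1 at the highest of 21 libraries, and in KO 25.9, 42.6 and 56.9 CPM. The genotypes overlapped only through WT T34 replicate 1, the highest WT library; without it the WT maximum was 10.3, and Per1 alone of the 5 genes had ranges that did not overlap, as did 41.3% of all genes (17.4% with all libraries, among them 0 of the 5). On the log2 scale KO exceeded WT by 2.29 at T10 and by 2.57 at T14, with 2.38 and 2.41 at T18 and T22, then 2.55 (T26) and 1.85 (T30), with SEs of 0.28 to 0.29. This is 3.61-fold to 5.93-fold. At T34 the WT libraries gave 33.1, 7.79 and 8.32 CPM and the KO libraries 29.0, 26.2 and 25.9. The difference there was 0.72 ± 0.28 (adjusted p = 0.0238) in the fit of all 42 and 1.75 ± 0.14 when WT T34 replicate 1 was left out. In the first fit the T34 call was lost on library totals (0.42), in a fit of only the 6 libraries compared (0.72), and without WT T34 replicate 2 (0.40), WT T34 replicate 3 (0.41) or KO T34 replicate 1 (0.67).

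Within KO, Per1 was high until T26 and lower at the end. The 3 libraries were at 50.4, 46.7 and 42.6 CPM at T10, 46.8, 56.9 and 43.1 at T26, 42.6, 29.5 and 26.9 at T30, and 29.0, 26.2 and 25.9 at T34. All T34 libraries lay below all T10 libraries, and at T30 replicate 1 was at the level of the earlier times. Per1 fell by 0.79 ± 0.27 (log2) from T10 to T34 in KO, or 1.72-fold (adjusted p = 0.0243). That call did not hold without KO T10 replicate 1 (-0.72), KO T10 replicate 2 (-0.78), KO T34 replicate 2 (-0.76) or KO T34 replicate 3 (-0.75), while without WT T34 replicate 1, which widens the spread shared by all groups, the adjusted p was 3.11e-07. In WT the apparent rise of 0.79 ± 0.28 from T10 to T34 came with that library, and without it the difference was -0.24 ± 0.14 and did not pass (adjusted p = 0.173). The call on the WT rise was also lost without WT T10 replicate 1 (0.74) or WT T10 replicate 3 (0.77).

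Per2, the PER protein most needed for a stable rhythm in mice, was higher in KO early and nearer the WT level late. At T10 the WT libraries were at 12.9, 14.5 and 11.99 CPM and the KO libraries at 36.96, 33.2 and 35.2. At T34 they were at 30.7, 17.1 and 18.5 in WT and 23.4, 21.3 and 19.0 in KO. The groups were far apart at T10. At T34 they overlapped only through WT T34 replicate 1, and the 3 KO libraries lay above the other WT libraries. KO exceeded WT by 1.42 ± 0.16 (log2) at T10 and T14, by 0.72 ± 0.15 at T18, and by 0.38 ± 0.15 and 0.37 ± 0.15 at T22 and T26, and the differences at T30 (-0.02 ± 0.15) and T34 (-0.06 ± 0.15) did not pass the test. The small differences at T22 and T26 were not stable: on library totals they were 0.07 and 0.05, and the T22 call was lost without WT replicate 1 (0.32), KO replicate 1 (0.36) or KO replicate 2 (0.33) of that time. The T26 call was lost without any of the 3 WT replicates (0.36, 0.39 and 0.37), KO replicate 1 (0.33) or KO replicate 2 (0.34). Without WT T34 replicate 1 the T34 difference was 0.25 ± 0.13, still not past the threshold (adjusted p = 0.0797). On library totals without that library the T30 difference passed as lower in KO (-0.30).

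The 2 genotypes reached this meeting point from opposite sides. In WT, the mean of Per2 went from 12.8 ± 0.23 CPM at T14 (SD, n = 3) to 20.04 ± 2.25 at T30. From T10 to T34 it rose by 0.75 ± 0.15 (log2), or 0.44 ± 0.13 without WT T34 replicate 1. In KO it fell by 0.73 ± 0.15 over the same span, from a mean of 35.1 ± 1.88 CPM to 21.2 ± 2.18 (SD, n = 3).

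Per3, a PER family member with a lesser role in keeping the loop running, was lower in KO through the middle of the course. At T22 the WT libraries were at 29.5, 29.0 and 28.1 CPM and the KO libraries at 13.03, 14.3 and 13.3. No WT library of T18, T22 or T26 was as low as any KO library of the same time. The KO minus WT difference of Per3 was -0.91 ± 0.17 (log2) at T18, -1.09 ± 0.17 at T22, which is 2.13-fold lower, and -0.83 ± 0.17 at T26. The differences at T10 (0.20 ± 0.16), T14 (-0.32 ± 0.17), T30 (-0.29 ± 0.16) and T34 (-0.18 ± 0.16) did not pass with all libraries. Without WT T34 replicate 1, whose Per3 level was 48.2 CPM against 20.7 and 24.04 in its replicates, all 4 passed: 0.20 ± 0.09 at T10, -0.33 ± 0.09 at T14, -0.29 ± 0.09 at T30 and 0.29 ± 0.10 at T34. Of all genes 76.6%, 77.1%, 78.4% and 75.6% passed at these times on the same libraries. The sign at T34 thus turned from lower to higher in KO, and on library totals the T10 sign turned as well, to -0.11. On library totals with all libraries Per3 passed as lower in KO at T14 (-0.63), T30 (-0.56) and T34 (-0.47), and with WT T34 replicate 1 also left out the T34 difference of 0.06 did not pass. In fits of only the 6 libraries of a time, the differences at T10 (0.20) and T14 (-0.32) passed. The T14 and T30 calls were also gained without WT T34 replicate 2 (-0.35 and -0.31), the T30 call without KO T30 replicate 2 (-0.42), and without WT T34 replicate 2 Per3 passed as lower in KO at T34 (-0.39). With only KO T30 replicate 1 left out, the T30 difference was -0.15 and did not pass.

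Per3 ran low in KO while it ran high in WT. Its WT mean was 17.9 ± 1.15 CPM at T10 and 28.9 ± 0.71 at T22 (SD, n = 3), and its KO mean went from 20.6 ± 1.14 at T10 to 13.4 ± 0.60 at T18 and 27.2 ± 0.57 at T34. In WT it rose by 0.79 ± 0.16 (log2) from T10 to T34, and by 0.32 ± 0.10 without WT T34 replicate 1. In KO the T34 level was 0.40 ± 0.16 above T10, which missed the threshold with all libraries (adjusted p = 0.0574) and passed without WT T34 replicate 1 (0.40 ± 0.09, adjusted p = 0.000244). It passed also without WT T34 replicate 2 (0.42), WT T34 replicate 3 (0.40) or KO T30 replicate 1 (0.40), and with all libraries in DESeq2 (0.40), on library totals (0.46) and in a fit of those 6 KO libraries alone (0.42).

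Cry1, which encodes a cryptochrome, the strong repressor of the loop, had no overall difference between genotypes past the test but opposite differences at the start and the end. At T14 the WT libraries were at 32.5, 32.8 and 32.0 CPM and the KO libraries at 46.6, 49.8 and 49.0. At T34 they were at 45.6, 40.2 and 41.5 in WT and 28.6, 26.6 and 25.3 in KO. KO lay wholly above WT at the first time and wholly below it at the second. The KO difference was 0.43 ± 0.09 (log2) at T10, 0.58 ± 0.09 at T14 and 0.52 ± 0.09 at T18, and then -0.22 ± 0.09 at T26, -0.68 ± 0.09 at T30 and -0.66 ± 0.09 at T34. At T22 it was 0.10 ± 0.09, which did not pass, and on library totals it was -0.21 there, which did; on the same scaling the T10 difference no longer passed (0.12). The T26 call was lost without WT T26 replicate 1 (-0.21), WT T26 replicate 2 (-0.22) or KO T26 replicate 3 (-0.18).

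In WT, Cry1 stayed between 31.6 and 33.3 CPM in all 9 libraries of T10 to T18 and then between 34.1 and 45.6, and its T34 level was 0.38 ± 0.09 (log2) above T10, or 0.33 ± 0.09 without WT T34 replicate 1. In KO it fell by 0.71 ± 0.09 over the same span, or 1.64-fold. KO T30 replicate 1, at 35.1 CPM against 22.4 and 23.5, was at the level of T26, where the KO libraries gave 36.1, 35.3 and 32.4.

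Dbp, the output gene of the loop, showed the largest rise of the 5 genes in KO. The KO libraries were at 37.5, 35.4 and 37.3 CPM at T10, 32.02, 34.96 and 29.4 at T18, 48.9, 70.9 and 63.3 at T30, and 81.0, 76.5 and 71.6 at T34. The T34 libraries were above every other KO library. Dbp rose by 1.06 ± 0.11 (log2) from T10 to T34 in KO, which is 2.08-fold, and only 434 genes (3.15%) had a larger absolute change over that span. In WT, Dbp was at 32.6, 31.8 and 28.6 CPM at T10, 47.5, 45.7 and 44.5 at T22 and 51.8, 37.9 and 37.3 at T34, so it was highest in the middle of the course except for WT T34 replicate 1.

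The genotype difference of Dbp changed sign along the course. KO minus WT was 0.24 ± 0.11 (log2) at T10, -0.48 ± 0.11 at T18 and -0.38 ± 0.11 at T22. The differences of 0.04 ± 0.11 at T14 and -0.03 ± 0.11 at T26 did not pass the test. KO was then higher by 0.72 ± 0.11 at T30 and 0.85 ± 0.11 at T34, or 1.02 ± 0.10 at T34 without WT T34 replicate 1. On library totals the difference was -0.07 at T10 and did not pass, and -0.27 at T14 and -0.34 at T26, which both passed as lower. The T10 call was lost without WT T10 replicate 2 (0.26) or replicate 3 (0.19), without WT T34 replicate 2 (0.23) and without KO T10 replicate 1 (0.23) or replicate 3 (0.23).

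**Figure D2:**
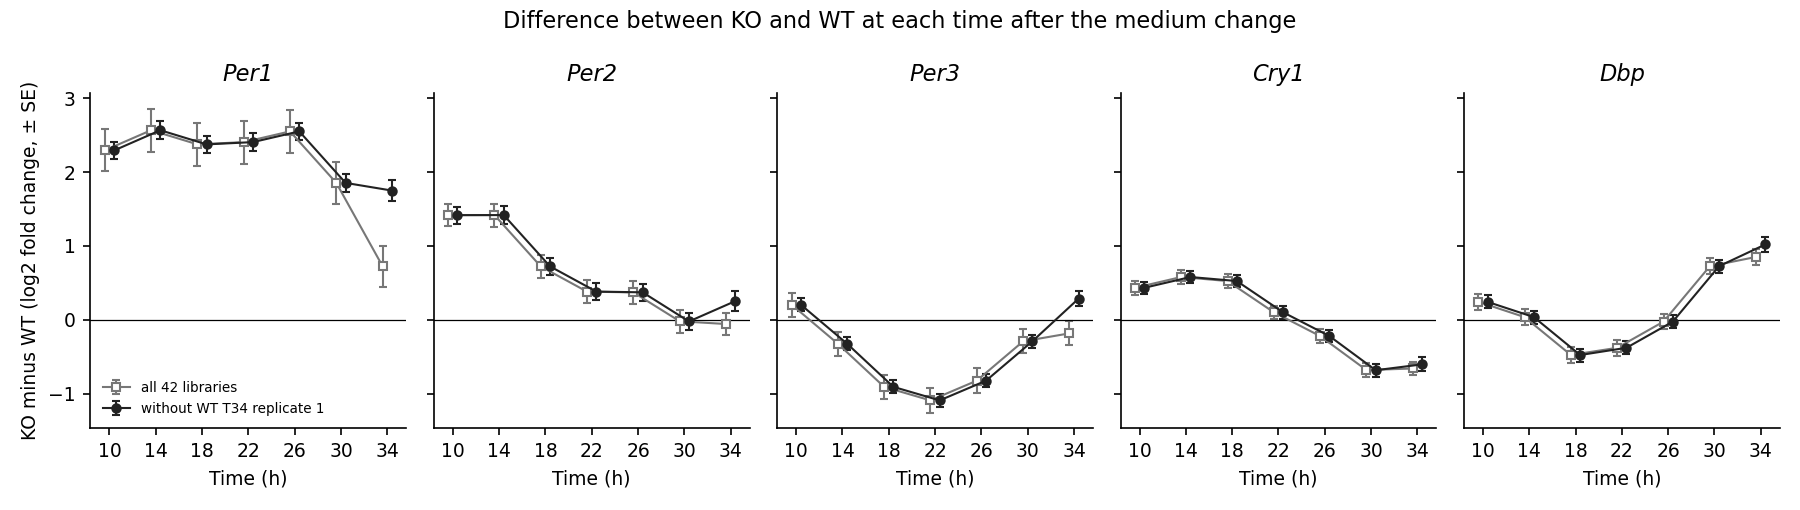
Difference KO minus WT (log2, with SE bars) of each gene against hours after medium change, from the fit of all 42 libraries and from the fit without WT T34 replicate 1. Per1 stays above 0, Per2 declines from 1.42 towards 0, Cry1 goes from positive to negative, and Per3 and Dbp dip in the middle, to -1.09 at T22 and -0.48 at T18.

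Counted by time, 4 of the 5 genes passed at T10 (69.6% of all genes did) and 3 at T14 (70.9%). All 5 passed at T18 (68.9%), and 4 did at T22 (70.5%) and T26 (70.3%). The count was 3 at T30 (73.0%) and at T34 (60.7%). The T26 count was 2 without WT T26 replicate 1 or WT T26 replicate 2. Most genes of the table passed at each time, and no count is read as particular to these genes. Whether the genotype difference changes with time was tested by the interaction of genotype with time, which all 5 genes passed, where 39.3% of all genes did. The adjusted p was 0.00272 for Per1, 7.58e-07 for Per2, 0.000253 for Per3, 3.34e-10 for Cry1 and 2.67e-08 for Dbp, and all 5 passed without WT T34 replicate 1 (54.0% of all genes).

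Change over the 7 times within a genotype passed for 5 of the 5 genes in WT (37.5% of all genes) and for 4 of the 5 in KO (36.8%). Per1 is the gene whose call turned on WT T34 replicate 1. Without that library the WT change in Per1 did not pass (adjusted p = 0.301; 4 of 5 genes, 44.1% of all genes), and its KO change, which missed with all libraries (adjusted p = 0.0942), passed (1.25e-07; 5 of 5 genes, 60.6% of all genes). The KO change in Per1 passed also without WT T34 replicate 2 (0.0199) or WT T34 replicate 3 (0.0324), in DESeq2 (0.0479) and in a fit of the 21 KO libraries alone (7.58e-05). In a fit of the 21 WT libraries alone the WT change did not pass for Per1 (0.203) or Per3 (0.084), which left 3 of 5. For the end against the start, WT had 5 of 5 genes higher at T34 than at T10 (22.9% of all genes were higher), and 4 of 5 without WT T34 replicate 1 (17.1%). In a fit of those 6 WT libraries alone it was 0 of 5, and on library totals without WT T34 replicate 1 it was 3 of 5, with Dbp lost (0.25). In the latter setting 2022 of all 13776 genes were higher. For the fits of WT libraries alone the share of all genes is not given here. Those counts are not read as particular to the 5 genes. In KO 3 of 5 were lower (Per1, Per2 and Cry1; 17.5% of all genes) and 1 was higher (Dbp; 16.5%). The 2 comparisons use different libraries, but they share 1 estimate of the spread.

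A 24 h cosine curve was then fitted with edgeR to the counts of each gene in each genotype. It gave an amplitude (log2, the height of the peak above the mean) and a peak time in hours after the medium change. The 7 times span 24 h, a single cycle, so a curve that passes cannot be told apart from a change that happens once. A 24 h curve also gives T10 and T34 the same level, so the differences between T34 and T10 above lie outside it. With all libraries 1 of the 5 genes passed in WT, where 1.98% of all genes did: Cry1, with an amplitude of 0.22 ± 0.04 and a peak at 28.8 ± 0.64 h (SE, adjusted p = 0.0184). Without WT T34 replicate 1, 4 of the 5 passed and 14% of all genes did. Their amplitudes were 0.31 ± 0.05 for Per2, 0.27 ± 0.04 for Per3, 0.21 ± 0.03 for Cry1 and 0.26 ± 0.03 for Dbp. The fitted WT peaks followed the order Dbp at 22.5 ± 0.52 h, Per3 at 23.2 ± 0.57 h, Per2 at 25.9 ± 0.62 h and Cry1 at 28.3 ± 0.53 h. The gap between Dbp and Per3 was about as large as the error of each, and Cry1 was the latest within the sampled window. Per1, the exception, had an amplitude of 0.07 ± 0.04 without that library (adjusted p = 0.404). In a joint fit of both genotypes with all libraries the WT call on Cry1 was lost (amplitude 0.22), and with all libraries Dbp passed in WT in DESeq2 (0.20) and with a linear term in time (0.23).

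In KO 3 of the 5 genes passed the 24 h cosinor, where 34.3% of all genes did. They were Per3 with an amplitude of 0.44 ± 0.05 (adjusted p = 0.000579), Cry1 with 0.37 ± 0.08 (0.00814) and Dbp with 0.50 ± 0.10 (0.00515), which is a 2.00-fold span from trough to peak. Per2 with 0.25 ± 0.09 (0.0800) and Per1 with 0.19 ± 0.09 (0.193) did not pass. Per2 did pass in DESeq2 (amplitude 0.26) and with no T34 libraries (0.30), and Per1 with a linear term in time (0.24). The fitted KO peaks were at 16.9 ± 0.73 h for Cry1, 30.9 ± 0.74 h for Dbp and 33.0 ± 0.52 h for Per3. Within the sampled window Cry1 came before Dbp and Per3 in KO and after them in WT, but by the shorter gap on a 24 h circle it followed both in both genotypes, so this order depends on where the window starts. These peak times are those of the fitted curve, which gives T10 and T34 the same level. In KO the measured T34 level differed from T10 by 1.06 ± 0.11 (log2) for Dbp and -0.71 ± 0.09 for Cry1. For Per3 it differed by 0.40 ± 0.16, which missed the threshold with all libraries. The KO means of Dbp and Per3 were highest at T34, the last time sampled. The assumed period mattered: with all libraries, 0 of 5 genes passed in WT and 1 of 5 in KO at 20 h, and 3 of 5 and 5 of 5 at 28 h. The share of all genes at these 2 periods is not given here, so these counts are not read as particular to the 5 genes.

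The curves differed between genotypes for 4 of the 5 genes, where 13.1% of all genes did: Per2 (adjusted p = 0.0242), Per3 (0.00349), Cry1 (0.000297) and Dbp (0.00105). Per1 did not pass (0.109). The same 4 passed without WT T34 replicate 1, where 27.4% of all genes did. On those libraries the KO peak lay 9.83 ± 0.78 h after the WT peak for Per3 and 8.33 ± 0.90 h after it for Dbp. On a 24 h circle the shorter gap ran the other way for Cry1, 11.5 ± 0.91 h, and Per2, 11.01 ± 1.39 h, both close to the opposite phase, where earlier and later are nearly the same. The KO curve of Per2 did not pass, and with all libraries its KO peak lay 11.8 ± 1.73 h after the WT peak. The KO amplitude exceeded that of WT by 0.17 ± 0.07 for Per3, 0.24 ± 0.10 for Dbp and 0.16 ± 0.09 for Cry1, and for Per2 the difference was -0.06 ± 0.11. The amplitudes were not tested apart from the peaks. The call on the difference of curves was lost at 20 h for Per2, Cry1 and Dbp, and with a linear term in time for Per2, and Per1 passed at 28 h and with the linear term.

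**Figure D3:**
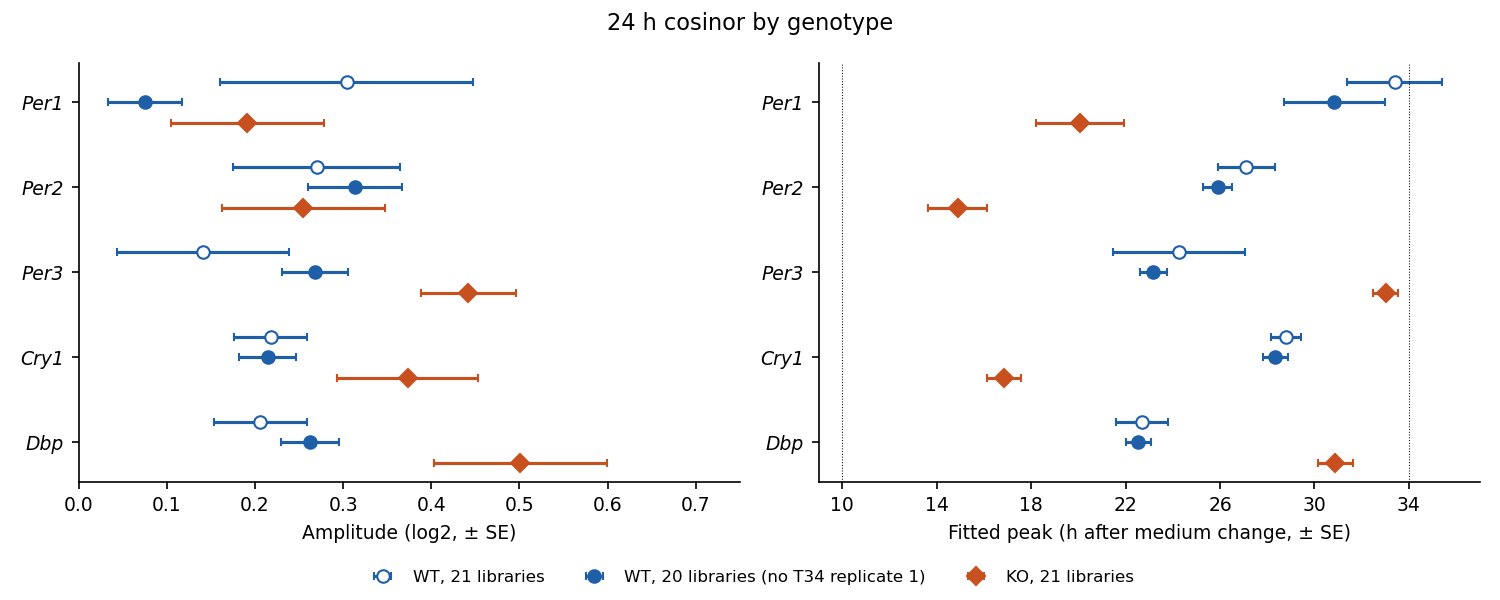
Amplitude (log2, left) and fitted peak time (hours after medium change, right) of the 24 h cosine curve, with SE bars, for WT with 21 libraries, WT with 20 libraries and KO with 21. The KO peaks of Per3 and Dbp lie at 33.0 and 30.9 h against 23.2 and 22.5 h in WT, and the KO peak of Cry1 at 16.9 h against 28.3 h.

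Ratios between counts of 2 genes in the same library do not depend on how libraries are scaled, and they were chosen after the values above had been seen. The Dbp to Cry1 ratio was 0.84 to 1.46 in all 21 WT libraries. In KO its mean was 0.84 ± 0.03 at T10, 0.73 ± 0.07 at T14 and 0.69 ± 0.09 at T18 (SD, n = 3), then 0.93 ± 0.08 at T22 and 1.29 ± 0.15 at T26. It reached 2.84, 2.87 and 2.83 in the T34 libraries, above every WT library, and at T30 it was 1.39 in replicate 1 and 3.17 and 2.69 in the others. The Per3 to Per2 ratio was 1.15 to 1.71 in WT and 0.47 to 0.63 in the 15 KO libraries of T10 to T26, with no overlap. At T34 it was 1.16, 1.26 and 1.46 in KO, within the WT range, and at T30 it was 0.59 in KO replicate 1 and 1.34 and 1.29 in the others. Both ratios put KO T30 replicate 1 beside the T26 libraries and the other T30 libraries beside T34.

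**Figure D4:**
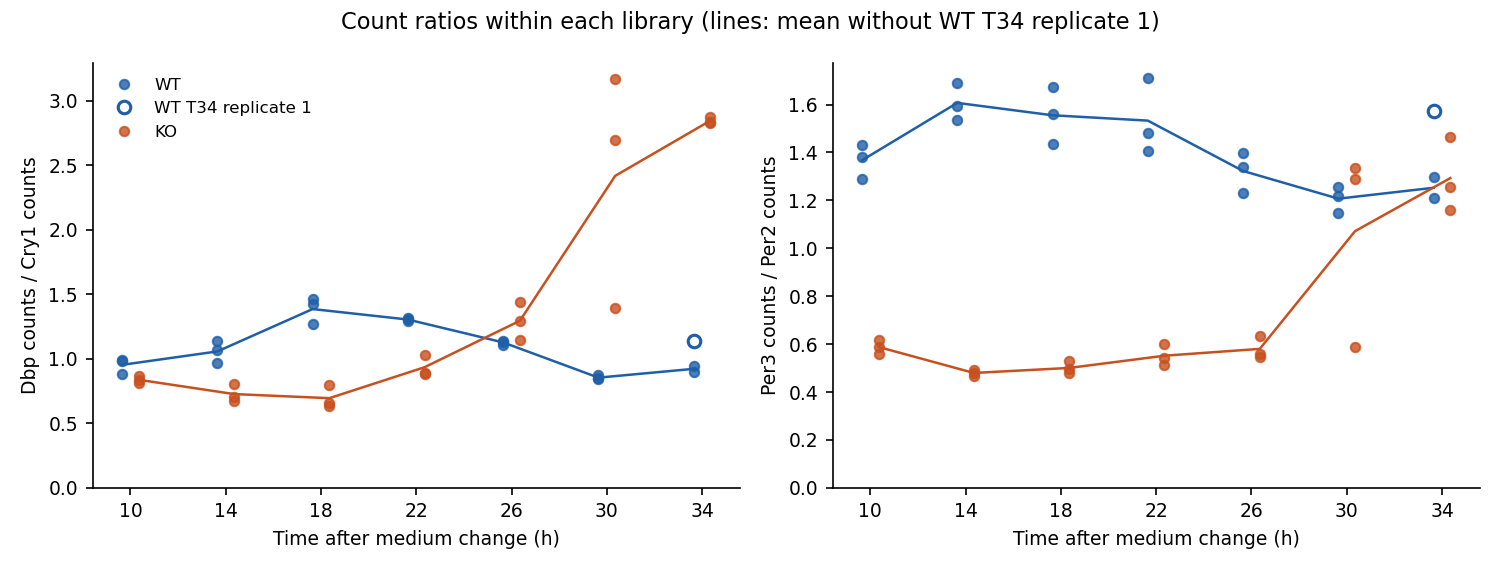
Ratio of counts in the same library against hours after medium change, Dbp to Cry1 and Per3 to Per2, with 1 point per library in WT and KO and lines through the means without WT T34 replicate 1 (open circle). The KO points of Dbp to Cry1 end at 2.83 to 2.87 while WT stays at or below 1.46, and the KO points of Per3 to Per2 rise from below 0.64 to within the WT range.

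The courses of the genes were compared by Pearson correlation of log2 levels over the 14 group means, after the mean of each genotype was taken off. The offset between genotypes therefore does not enter r, which describes means that share libraries. Per2 was most like Cry1 among the 5 (r = 0.85, 46th of 13775 other genes in likeness to Per2), and Per3 most like Dbp (r = 0.81). Over the 7 KO means Cry1 and Dbp ran opposite to each other (r = -0.93), and over the 7 WT means without WT T34 replicate 1 they did not (r = 0.18). Over those same WT means Per3 and Dbp were at r = 0.94. The gene whose course was most like that of Dbp over the 14 means was ENSRNOG00000013968 (r = 0.98, and 0.98 without WT T34 replicate 1). For Per1 it was ENSRNOG00000047080 (r = 0.98, and 0.89 without that library). That first place rests on WT T34 replicate 1, since the gene next in likeness to Per1 (r = 0.97) was at 0.96 without it.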

How the data were processed

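RNA was sequenced as strand-specific paired reads from total RNA, per the labels' protocols. The deposited values are raw counts per gene, made by the authors with featureCounts, per the submitters' processing notes. The aligner, the genome build, the annotation and the strand setting of the counting are not given in the sources used here, so reads from a gene and an antisense partner may not be told apart. Both tables were joined by identifier, and 0 of 13776 identifiers matched a name in the reference table; the 5 genes were taken by identifier. The list of other clock genes and the marker lists that had been planned were therefore not analysed here. The 5 genes and all lists were chosen with earlier results of these data known.

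Counts were fitted with edgeR 4.0.16 in R 4.3.3: TMM scaling over all libraries, filterByExpr, 14 groups in 1 model of 42 libraries, quasi-likelihood F tests and Benjamini-Hochberg adjustment over 13776 genes with a threshold of 0.05. The 24 h cosinor was fitted per genotype to 21 libraries (a test on 2 degrees of freedom), and its difference between genotypes to all 42. SEs of log2 differences are the difference over the square root of F, and those of amplitude and peak come from the delta method. The scripts were tested on simulated counts. Replicates differed by more than counting noise in all 42 replicate pairs (chi-square per degree of freedom of 5.48 or more), and the coefficient of variation between libraries was 0.139, or 0.0923 without WT T34 replicate 1.

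Alternatives were library totals, median-of-ratios scaling, no filter and a filter at 1 CPM, DESeq2 1.42.0, fits of only the libraries compared, other periods (20 and 28 h), a linear term, no T34 libraries, a joint cosinor fit, a replicate block and leaving out each library. Settings that combine leaving out WT T34 replicate 1 with another choice were added after seeing the data. Genes named for a like course were, for each of Per1 and Dbp, the one with the highest correlation.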

Additional observations from a re-analysis of the deposited data

Results flagged for a closer look

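The effect of genotype differed between times for all 5 genes, by the test of the genotype by time interaction in edgeR with Benjamini-Hochberg adjustment over all genes. With all libraries 39.3% of all genes passed that test. The adjusted p was 0.00272 for Per1, 7.58e-07 for Per2, 0.000253 for Per3, 3.34e-10 for Cry1 and 2.67e-08 for Dbp. The shape of the change differed by gene: Per1 stayed higher in KO, the Per2 difference shrank, Cry1 and Dbp changed sign, and Per3 passed as lower in KO from T18 to T26. The 24 h curves differed between KO and WT for 4 genes, by the test of that difference: the adjusted p was 0.0242 for Per2, 0.00349 for Per3, 0.000297 for Cry1 and 0.00105 for Dbp. Of all genes 13.1% passed that test with all libraries.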

How the results depend on the processing

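Of 4812 alternative values for 96 results, 4629 kept their direction and their side of the threshold (for counts of genes, within 1.5 times) and 33 changed sign. The filter removed 0 genes, so the fit with no filter repeated the main fit and its values were bound to be kept. Many other values left out a library of a group outside the comparison, so the total is not read as a measure of stability. On library totals the difference between KO and WT turned for Cry1 (-0.29) and Dbp (-0.16) over all times, for Dbp (-0.072) and Per3 (-0.11) at T10, for Dbp at T14 (-0.27) and for Cry1 at T22 (-0.21). With WT T34 replicate 1 left out as well these were -0.28, -0.13, -0.074, -0.11, -0.27 and -0.21. With that library left out, the T34 difference of Per2 turned to 0.023 on library totals, 0.25 in DESeq2 and 0.21 with the replicate block, that of Per3 to 0.058, 0.29 and 0.29, and the WT change of Per1 from T10 to T34 to -0.27, -0.25 and -0.21.

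The number of the 5 genes called moved to 2 at T10 and 5 at T14 on library totals (the same with that library left out, and then 5 at T30 and 3 for T34 against T10 in WT). On library totals 10152 of all 13776 genes passed at T10 and 10258 at T14. With that library left out these were 11064 and 11104, with 11044 at T30. For T34 against T10 in WT 4638 then passed, in either direction. The number of the 5 genes called moved to 3 for change over the times in WT fitted on WT alone, and to 0 for T34 against T10 in WT fitted on those 6 libraries. For the WT cosinor it was 2 in DESeq2, 0 at 20 h, 3 at 28 h, 2 with a linear term, 4 with no T34 libraries, 0 in the joint fit, and 4 in each setting that leaves out WT T34 replicate 1. Of all 13776 genes the WT cosinor called 273 in the main fit, 793 in DESeq2 and 1925 without WT T34 replicate 1. On library totals without that library it called 2014. For the other settings the number over all genes is not given here, and no count is read as particular to the 5 genes. For the KO cosinor it was 1 at 20 h and 5 at 28 h, and for the cosinor difference 1 at 20 h. The cause of these changes was not tested.

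Leaving out each library in turn gave differences between KO and WT of -0.023 to 0.027 for Cry1 over all times, -0.024 to 0.084 for Dbp at T14, -0.061 to 0.040 for Dbp at T26, -0.27 to 0.11 for Per2 at T30, -0.20 to 0.25 for Per2 at T34 and -0.39 to 0.29 for Per3 at T34. The WT change of Per1 from T10 to T34 ran from -0.24 to 1.11. The count of called genes ran from 2 to 4 at T26 and from 1 to 4 for the WT cosinor. The deviations of same-numbered WT and KO libraries correlated at -0.07 to 0.23, over 0.1 in 3 of 21 pairs. Of 21 WT libraries, 10 matched best the KO library of their own number. With 3 KO libraries to match, some such matches arise by chance, and whether replicate numbers pair the samples was not tested. The fit with a replicate block on all libraries changed no call: 4 of the 5 genes differed over all times, and 5 of 5 passed the interaction. Each of the 5 genes had 316 or more counts in every library. Across genes the replicates differed by more than counting noise, but this was not examined for the 5 genes on their own.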
